A study of Mus musculus with 2 samples.

Results

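Cxcl10 and 36 further interferon-stimulated genes were followed through the lymphocytes of mouse ear epidermis, to see whether the chemokine gene was higher or lower together with the interferon programme or by itself. The 37 genes were listed by name, and 36 of them were among the 31053 genes counted; Mx2 was not analysed here. Type I interferons bind the receptor chains Ifnar1 and Ifnar2, whose kinases Jak1 and Tyk2 phosphorylate Stat2, which acts with Irf9 at the interferon-stimulated response element (ISRE) of target genes. Interferon-γ binds Ifngr1 and Ifngr2 and acts on target genes through gamma-activated sites (GAS). Most of the listed genes encode proteins that block viruses or sense their nucleic acids, whereas Cxcl10 encodes a secreted chemokine that draws Cxcr3-bearing T cells and natural killer cells, and is also a target of NF-κB.

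Dendritic epidermal T cells (DETCs) are γδ T cells of mouse epidermis whose Vγ5Vδ1 receptor depends on Skint1, a keratinocyte protein. The series compared DETCs after antibody blockade of Skint1 with DETCs after a control antibody. Both groups were wild-type (WT) female FVB/NJ mice, 8 weeks old, sampled 7 d after an intradermal injection of either isotype control antibody or anti-Skint1 antibody. From ear epidermis, viable cells positive for CD45 and negative for EpCAM and MHC-II were collected by sorting and made into 1 droplet library (10x Genomics 3′) per group, and the published study gives 1 mouse per group for these data. With 1 library per group there was no replicate check and no test: treatment, mouse and library cannot be told apart, and every interval is a 95% interval that covers counting error only. The isotype library held 27272211 unique molecular identifiers (UMIs) and the anti-Skint1 library 32450957. After filtering, 4242 isotype and 5961 anti-Skint1 cells were kept, with medians of 4046.5 and 3604 UMIs, and 5 barcodes were kept in both libraries.

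The cells fell into classes set by marker UMIs. DETCs (Trdc and CD3 transcripts, no Trac, Cd4, Cd8a or Cd8b1) numbered 3544 in the isotype and 4945 in the anti-Skint1 library. Trdv4, the Vδ gene of the DETC receptor, fitted the label of the class as a whole. It stood at 978 CPM (UMIs scaled to a class total of 1000000) in the isotype and 789 CPM in the anti-Skint1 DETCs. It was at 0 in the other classes, where the gate required its absence. The DETC gate did not require Trdv4, so it did not exclude dermal γδ T cells. In DETCs Il17a had 161 and 118 UMIs, and the 7 dermal γδ markers summed to 72.5 and 71.2 CPM. αβ T cells (Trac without Trdv4) numbered 197 and 213, with Cd4 at 98.7 and 87.3 CPM and Cd8a at 40.0 and 47.8 CPM. Their Cd8b1 was lower in the anti-Skint1 library, at 56.2 and 33.5 CPM, a log2 ratio of −0.75 (−1.48 to −0.035). Cd4, Cd8a and Cd8b1 were absent from DETCs by the gate. Cd6, which no gate used, went with the label, at 149 and 110 CPM beside 0.55 and 0.11 CPM in DETCs. Trbc1 did not, at 1115 and 935 CPM beside 1491 and 1250 CPM in DETCs. Dermal γδ markers summed to 629 and 580 CPM in the αβ T cells, above their sum in DETCs, with Maf the most abundant. A further set of 82 and 139 cells had few CD3 UMIs and at least 3 UMIs of Il7r, Rora and Gata3, a gate meant for innate lymphoid cells. Here the label fitted less well: Il18r1 (306 and 226 CPM) and Kit (83.6 and 111 CPM) were present, but Ncr1 had 0 and 1 UMIs and Il1rl1 0 and 3, while the 9 keratinocyte markers summed to 528 CPM in isotype and 4968 CPM in anti-Skint1 cells and the Langerhans and myeloid markers to 1447 and 2106 CPM. It is called the CD3-low set below, and 9 isotype and 14 anti-Skint1 cells belonged to both it and the αβ T cells. The remaining 428 and 678 cells met no gate.

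In DETCs, Cxcl10 was higher after anti-Skint1 treatment and the rest of the programme, with the exception of Bst2, was not. Cxcl10 stood at 97.5 CPM (92.6 to 103) in isotype and 130.0 CPM (125 to 135) in anti-Skint1 DETCs, from 1430 and 2432 UMIs, a log2 ratio of 0.41 (0.32 to 0.51). The other 35 measured members together stood at 681 CPM (668 to 694) and 734 CPM (722 to 747), a log2 ratio of 0.11 (0.072 to 0.15). That small difference came from Bst2: without it the sum was 348 CPM in isotype and 332 CPM in anti-Skint1 DETCs, and the log2 ratio lay on the other side of 0, at −0.067 (−0.12 to −0.014).

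Of the 36 measured members, 18 had at least 100 UMIs over both libraries in DETCs, 13 had fewer and 5 had none. Taking a log2 ratio of 0.32 in either direction as the size to name (the fold below), Cxcl10 was the 1 member of these 18 past it upward and Oasl2 the 1 past it downward. Among all 9891 genes with that many UMIs, 3.46% were past the fold upward and 4.57% downward, so the 1 of 18 in each direction (5.56%) lay near the share over all genes. The median log2 ratio of the 18 members was −0.016, beside −0.026 for the 9891 genes, and 9 members lay above 0 and 9 below. The ratio of Cxcl10 itself was equalled or exceeded by 187 of the 9891 genes, 1.89%.

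**Figure D1:**
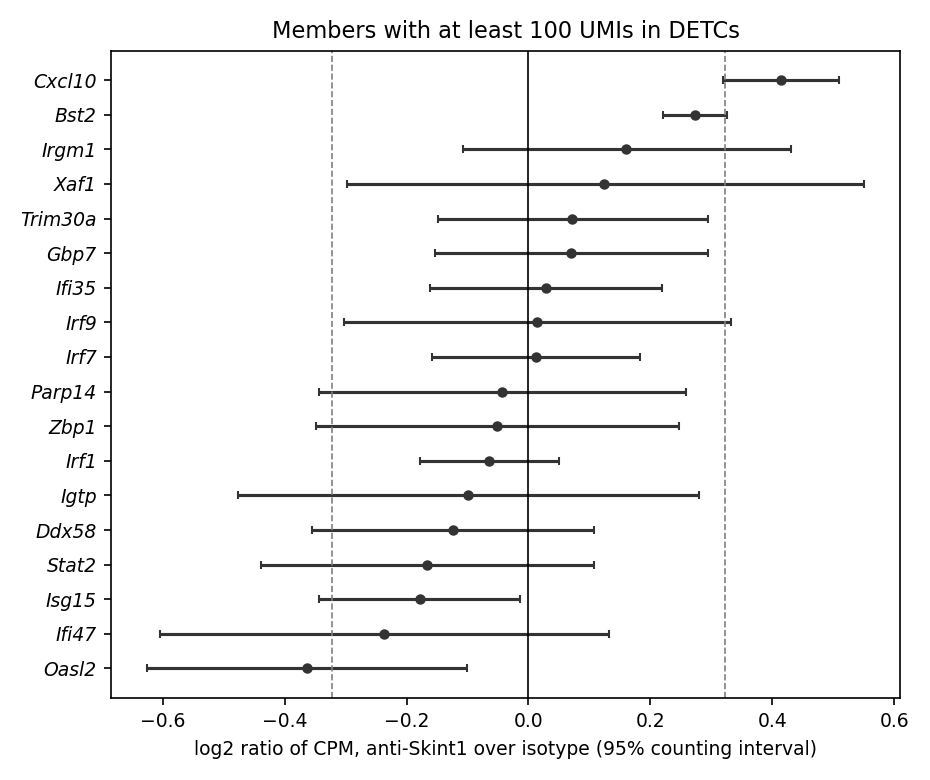
Each point is a member with at least 100 UMIs in DETCs; the horizontal axis is the log2 ratio of CPM, anti-Skint1 over isotype, bars are 95% counting intervals and dashed lines mark the fold of 0.32. Cxcl10 (0.41) and Bst2 (0.27) lie to the right and Oasl2 (−0.36) to the left, with most intervals of the other members spanning 0.

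Taken by role, the ISG15 system went slightly the other way from Cxcl10. Isg15, a ubiquitin-like protein joined to other proteins during the interferon response, stood at 39.1 CPM in isotype and 34.5 CPM in anti-Skint1 DETCs, a log2 ratio of −0.18 (−0.34 to −0.014). Usp18, the protease that removes Isg15 and damps the type I receptor, had 22 and 12 UMIs. The Ifit genes, which encode proteins that bind foreign 5′ RNA ends, were scarcely read in DETCs at all: Ifit1 had 18 and 9 UMIs, Ifit2 15 and 18, Ifit3 0 and 1, and Ifit3b 3 and 0. Ifit3 and Ifit3b are near-identical copies, and reads that match both can be lost or split in counting, so their counts are uncertain.

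The 2′-5′ oligoadenylate synthetase family makes or resembles the enzymes that switch on RNase L. Oasl2 was lower, at 16.7 CPM in isotype and 13.0 CPM in anti-Skint1 DETCs, a log2 ratio of −0.36 (−0.63 to −0.10). Oas3 had 4 and 14 UMIs, while Oasl1, Oas1a and Oas2 had none in either library, where 3 UMIs would have been 0.205 CPM in isotype and 0.160 CPM in anti-Skint1 DETCs.

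Among the antiviral effectors, Bst2 was the most read member in DETCs. Bst2 (tetherin) holds budding virus at the cell surface and is also made without interferon by some lymphocytes. It stood at 333 CPM (324 to 342) in isotype and 402 CPM (393 to 412) in anti-Skint1 DETCs, a log2 ratio of 0.27 (0.22 to 0.33), which is above 0 but short of the fold. Rsad2 (viperin), an enzyme that makes a chain-terminating nucleotide, had 14 and 10 UMIs, and Mx1, a dynamin-like GTPase that traps influenza ribonucleoproteins, had 0 in both.

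The transcription factor members were level between the libraries. Irf1, induced by interferon-γ and NF-κB, stood at 78.0 CPM in isotype and 74.6 CPM in anti-Skint1 DETCs, a log2 ratio of −0.064 (−0.18 to 0.050). Irf7, the amplifier of type I interferon transcription, had a log2 ratio of 0.012 (−0.16 to 0.18). Irf9 and Stat2, which act together at the ISRE, had log2 ratios of 0.014 and −0.17, with both intervals spanning 0.

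Of the interferon-inducible GTPases, which attack the vacuoles of intracellular pathogens, Gbp7 (log2 ratio 0.070), Irgm1 (0.16), Igtp (−0.10) and Ifi47 (−0.24) all had intervals spanning 0, while Gbp2 had 30 and 22 UMIs and Gbp3 15 and 5. The sensors of viral nucleic acid behaved likewise: Ddx58 (RIG-I), which recognizes 5′-triphosphate RNA, had a log2 ratio of −0.12 and Zbp1, which binds Z-form nucleic acid and starts necroptosis, −0.052, again with intervals spanning 0. Ifih1 (MDA5), the sensor of long double-stranded RNA, had 12 and 13 UMIs and Dhx58, its cofactor, 0 and 5. The remaining members were Ifi35 (0.028), Trim30a (0.072), Xaf1 (0.12) and Parp14 (−0.044), also with intervals spanning 0, besides Ifi27l2a with 9 and 6 UMIs, Rtp4 with 10 and 13, and Ifi44 with 0 in both.

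RNA outside cells carried Cxcl10 too. Barcodes with 1 to 100 UMIs, taken as a measure of free RNA, held Cxcl10 at 65.5 CPM (57.3 to 74.5) in the isotype and 82.1 CPM (72.6 to 92.5) in the anti-Skint1 library, a log2 ratio of 0.33 (0.067 to 0.59), in the direction seen in DETCs. Free RNA held DETC transcripts as well, since the DETC markers summed to 4088 and 4235 CPM in it. Keratinocyte markers summed to 1347 and 1994 CPM in it, a log2 ratio of 0.57 (0.51 to 0.62). Langerhans and myeloid markers had 0.42 (0.26 to 0.58), whereas αβ T cell markers had −0.22 and neutrophil and mast cell markers −1.42. The NK and innate lymphoid (0.037) and dermal γδ markers (0.13) had intervals spanning 0. The other 35 members summed to 592 and 604 CPM there, and the Ifit genes to 101 and 71 UMIs, more than the 36 and 28 UMIs of all DETCs. The part of free RNA in the DETC values was not tested.

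Cxcl10 was not spread evenly over DETCs. In 3151 of 3544 isotype and 4317 of 4945 anti-Skint1 DETCs no Cxcl10 UMI was read, whereas the highest cells held 31 and 37. Cells with at least 3 Cxcl10 UMIs, 151 isotype and 255 anti-Skint1 DETCs, carried 78.2% and 80.2% of all Cxcl10 UMIs of the class. The 10 highest cells carried 16.3% and 10.9%.

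The share of DETCs with Cxcl10 is given without a correction for free RNA. The share with a Cxcl10 UMI was 11.1% (exact binomial interval 10.1 to 12.2) in isotype and 12.7% (11.8 to 13.7) in anti-Skint1 DETCs, at median depths of 4027.5 and 3577 UMIs. After each cell was thinned to 2000 UMIs, which left out 134 and 202 shallower cells, the shares were 7.80% (6.92 to 8.75) and 9.61% (8.79 to 10.5), and those with at least 3 Cxcl10 UMIs were 2.35% (1.86 to 2.91) and 3.29% (2.80 to 3.84). Thinned positive cells held a mean of 2.54 and 2.73 Cxcl10 UMIs, for which no interval was made. For comparison, the CD3-low set, at median depths of 4570 and 4334 UMIs, had thinned shares of 2.60% (0.316 to 9.07) and 3.68% (1.20 to 8.37), and the αβ T cells 9.47% (5.71 to 14.6) and 10.7% (6.76 to 15.9).

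Within a library, the Cxcl10-positive DETCs were compared with the Cxcl10-negative ones, all thinned to 2000 UMIs (266 and 3144 isotype cells, 456 and 4287 anti-Skint1 cells). The other 35 members together were 816 CPM in positive and 658 CPM in negative isotype cells, a log2 ratio of 0.31 (0.16 to 0.45), and 774 and 736 CPM in anti-Skint1 cells, 0.073 (−0.041 to 0.19). The isotype value depended on the filters: it was 0.15 with no upper limit on genes, and 0.12 (−0.16 to 0.38) with at most 5% mitochondrial UMIs. Bst2, the member nearest to Cxcl10 between the libraries, did not go with it between cells: its log2 ratios were −0.046 (−0.28 to 0.18) in isotype and −0.13 (−0.30 to 0.033) in anti-Skint1 DETCs. With Bst2 left out, the other members had log2 ratios of 0.59 (0.40 to 0.77) and 0.28 (0.12 to 0.44).

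Isg15 and Irf1 were higher in the Cxcl10-positive DETCs of both libraries. Isg15 had log2 ratios of 0.94 (0.40 to 1.45) in isotype and 0.51 (0.033 to 0.96) in anti-Skint1 cells, and Irf1 0.77 (0.39 to 1.14) and 0.50 (0.18 to 0.81). Even so, Isg15 was read in 7.89% of positive cells of either library, beside 5.53% and 5.48% of negative ones, so that most Cxcl10-positive DETCs had no Isg15 UMI at this depth. Nor was Cxcl10 higher with each Isg15 UMI up to 2. It stood at 94.4, 172 and 87.5 CPM in isotype cells with 0, 1 and 2 Isg15 UMIs, and at 127, 212 and 94.6 CPM in anti-Skint1 cells. The levels at 2 rested on 7 Cxcl10 UMIs each (35.2 to 180 and 38.0 to 195 CPM). With 3 or more, Cxcl10 stood at 600 CPM (310 to 1048) in 10 isotype and 147 CPM (47.7 to 343) in 17 anti-Skint1 cells. All 12 of these isotype Cxcl10 UMIs lay in 1 of the 10 cells, and the 5 anti-Skint1 UMIs in 2 of the 17. By 0, 1 and 2 Irf1 UMIs, Cxcl10 stood at 93.1, 133.8 and 134.3 CPM in isotype and 123, 165 and 250 CPM in anti-Skint1 cells. The GTPase members differed between the libraries, with log2 ratios of 0.93 (0.49 to 1.35) in isotype and −0.027 (−0.48 to 0.40) in anti-Skint1 cells, a difference that was not tested. GTPase UMIs lay in 10.9% of positive and 9.19% of negative isotype cells, so that few cells carried the isotype value. Ifit1 had 4 UMIs in 1 isotype Cxcl10-positive cell and 2 in the negative cells.

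Immediate-early genes and NF-κB targets were higher in the Cxcl10-positive DETCs of both libraries. The 18 immediate-early genes (Fos, Egr1 and others, transcribed within minutes of receptor signalling) had log2 ratios of 0.39 (0.36 to 0.43) in isotype and 0.40 (0.38 to 0.43) in anti-Skint1 DETCs. For the 18 NF-κB target genes the values were 0.48 (0.42 to 0.54) and 0.51 (0.46 to 0.56). Other chemokine genes had 0.76 (0.61 to 0.91) in isotype and 0.35 (0.16 to 0.53) in anti-Skint1 cells. Heat shock genes, a sign of handling stress, had 0.11 (0.075 to 0.15) and 0.16 (0.13 to 0.19). The part of handling in the immediate-early and NF-κB values was not tested. Within the interferon pathway, the interferon genes were higher in the positive isotype cells, at 32.0 CPM beside 5.88 CPM in negative ones, a log2 ratio of 2.44 (1.52 to 3.31) from 17 and 37 UMIs. These UMIs lay in 2.26% of positive and 0.922% of negative cells, so that few cells carried the ratio. The interferon genes had 0.54 (−0.65 to 1.57) in anti-Skint1 cells. The interferon receptor genes had 0.22 (0.0026 to 0.42) and 0.31 (0.14 to 0.47). By contrast, the list of 58 further measured interferon-stimulated genes had log2 ratios of 0.087 (0.0091 to 0.16) and −0.090 (−0.15 to −0.030), on opposite sides of 0. Of the markers of other cells, those of dermal γδ T cells were higher in the Cxcl10-positive isotype cells, at 0.70 (0.29 to 1.09), and had 0.29 (−0.093 to 0.65) in anti-Skint1 cells. The keratinocyte list had −0.016 (−0.75 to 0.64) and −0.076 (−0.55 to 0.36), with Dsp its most abundant gene in DETCs, and its 9 genes summed to 38.5 CPM in isotype and 54.0 CPM in anti-Skint1 DETCs overall.

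**Figure D2:**
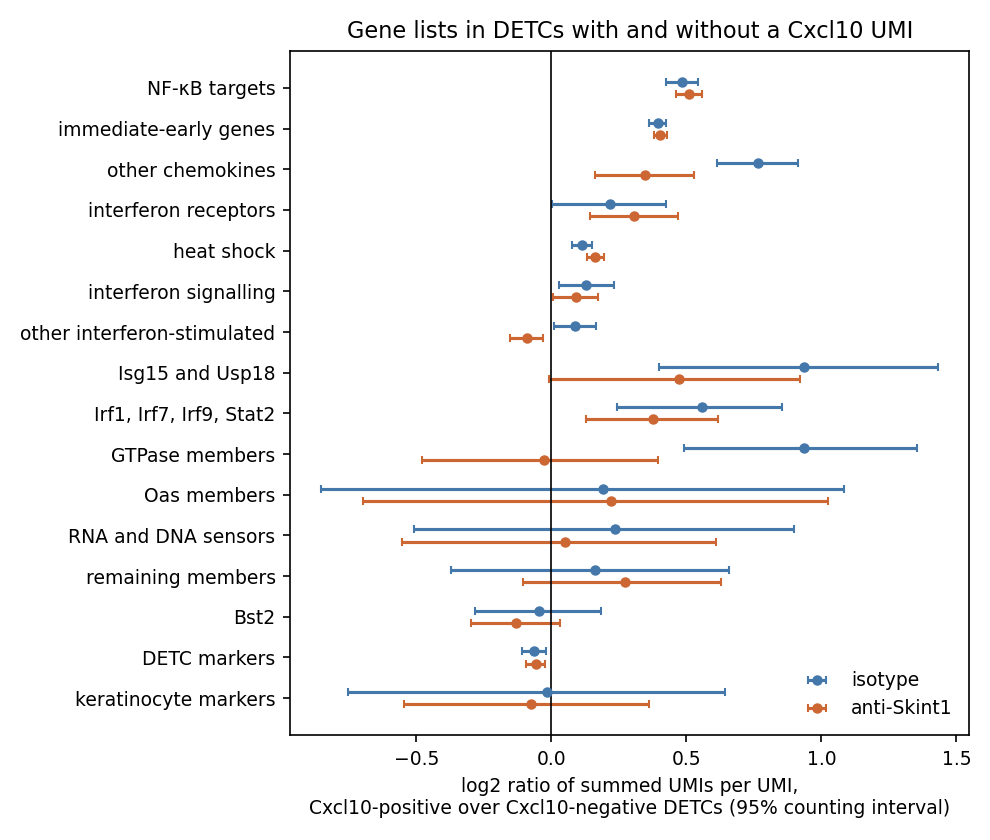
Points are log2 ratios of summed UMIs in DETCs with a Cxcl10 UMI over DETCs without, thinned to 2000 UMIs, for gene lists and member groups in each library; bars are 95% counting intervals. Immediate-early genes (0.39 and 0.40) and NF-κB targets (0.48 and 0.51) lie to the right of 0 in both libraries, while Bst2 (−0.046 and −0.13) does not.

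By the mean of this log2 ratio over both libraries, the 10 genes most like Cxcl10 among 4316 with enough UMIs were Ccrl2, Gzmb, Tnfaip2, Stmn1, Egr4, Areg, Ndrg1, Plk3, Isg15 and Muc1. For Ndrg1 (0.61, −0.069 to 1.23) and Muc1 (0.43, −0.26 to 1.05) the isotype interval spanned 0. Ccrl2, an atypical chemoattractant receptor, came first, with log2 ratios of 1.26 (0.71 to 1.77) in isotype and 1.07 (0.55 to 1.57) in anti-Skint1 cells. Gzmb, the cytotoxic protease granzyme B, had 1.31 and 0.92, and Areg, the epidermal growth factor receptor ligand amphiregulin, 0.82 and 0.78. Isg15 was the 1 member among the 10, at the position 9, and Irf1 stood at 24, Irf7 at 306 and Bst2 at 2487 of 4316. At the other end were B4galt5, Hs2st1, Sdhaf1, Vps72 and Ggta1, the first with log2 ratios of −3.12 in isotype and 0.063 in anti-Skint1 cells. The median gene had −0.048 and −0.046. Between the libraries, Ccrl2 (log2 ratio −0.24), Gzmb (−0.71), Areg (−0.090), Plk3 (−0.23) and Isg15 (−0.18) were lower in anti-Skint1 DETCs. Tnfaip2 (0.041), Stmn1 (−0.052), Egr4 (−0.020), Ndrg1 (−0.13) and Muc1 (−0.066) had intervals spanning 0.

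Read the other way, the level of Cxcl10 by member UMIs depended on Bst2. With all 35 other members counted, isotype DETCs with 0, 1, 2 and 3 or more UMIs held Cxcl10 at 84.1, 104, 107 and 106 CPM, and anti-Skint1 DETCs at 122, 129.8, 125 and 152 CPM. By Bst2 alone the isotype levels were 95.4, 121, 71.6 and 62.5 CPM, and the anti-Skint1 levels 133, 136, 119 and 110.4 CPM. Leaving Bst2 out was chosen after the data were seen. Isotype DETCs with 0 UMIs of the members besides Cxcl10 and Bst2 held Cxcl10 at 90.5 CPM (81.1 to 101), close to the 99.5 and 99.2 CPM of cells with 1 and 2 UMIs and below the 199 CPM (152 to 255) of cells with 3 or more. In anti-Skint1 DETCs the levels were 126, 105, 194 and 212 CPM in the same order. Cells without any such UMI, 1856 isotype and 2545 anti-Skint1 DETCs, carried 336 of 676 and 641 of 1243 thinned Cxcl10 UMIs. Between the libraries, Cxcl10 had a log2 ratio of 0.48 (0.28 to 0.67) in cells with no such UMI and 0.32 (0.13 to 0.52) in cells with at least 1.

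The difference between the libraries also varied with immediate-early transcripts. When thinned DETCs were split into 3 parts by their immediate-early UMIs, with bounds at 13 and 32 UMIs over both libraries, Cxcl10 in the lowest part stood at 50.9 CPM in isotype and 47.9 CPM in anti-Skint1 cells, a log2 ratio of −0.088 (−0.45 to 0.27). In the middle part the levels were 117 and 136 CPM, 0.22 (−0.0082 to 0.44), and in the highest part 128 and 213 CPM, 0.74 (0.54 to 0.94). The parts held similar shares of the cells in each library, 33.0% and 33.2% in the highest. Split by NF-κB target UMIs, the log2 ratios were 0.47, 0.25 and 0.57 from the lowest to the highest part, with no such order. Split by Bst2, they were 0.48 in cells with no Bst2 UMI and 0.31 in cells with at least 1. These splits were made after the data were seen, and the parts of activation state and of handling in the ratio were not tested.

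Between the libraries, no interferon or receptor gene with 100 UMIs in DETCs was past the fold. Of the 20 interferon genes, 14 had no UMI in DETCs; Ifng had 52 UMIs in isotype and 68 in anti-Skint1 DETCs, a log2 ratio of 0.035 (−0.51 to 0.58), and Ifnk, the interferon of keratinocytes, 53 and 67, a log2 ratio of −0.013. Ifna13 and Ifnl2 each had 0 and 4 UMIs, and only Ifng and Ifnk of the interferon genes reached 100. Among receptor genes, Ifnlr1 fell short of 100, with 8 UMIs in isotype and 29 in anti-Skint1 DETCs, a log2 ratio of 1.51 (0.34 to 2.85). Of the 5 receptor genes with 100 UMIs, Ifnar1 stood at 147 CPM in isotype and 134 CPM in anti-Skint1 DETCs, and the log2 ratios were −0.13 for Ifnar1, −0.080 for Ifngr2, −0.054 for Ifngr1 and −0.11 for Ifnar2. Of the 12 signalling genes, 1 was past the fold, downward, beside 4.57% of all genes: Ptpn6, the tyrosine phosphatase SHP-1 that dampens Jak signalling, at 153 CPM in isotype and 78.3 CPM in anti-Skint1 DETCs, a log2 ratio of −0.97 (−1.06 to −0.87). Jak1 (−0.056), Socs1 (0.14) and Socs3 (−0.19), the kinase and its feedback inhibitors, were within the fold.

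A list of further interferon-stimulated genes lay on both sides as well. Of the 34 with 100 UMIs in DETCs, 0 were past the fold upward and 4 downward (Helz2, Parp9, Slfn2 and Isg20), beside 3.46% and 4.57% of all genes, and their median log2 ratio was −0.034. Summed over the list the ratio was above 0, with 2585 CPM in isotype and 2764 CPM in anti-Skint1 DETCs, a log2 ratio of 0.097 (0.078 to 0.12). Their most read genes were on the side of Bst2: Ly6e (0.15), Ly6a (0.29) and Ifitm2 (0.30) were above 0 with intervals clear of it, and Psmb8, an immunoproteasome subunit, had 0.048 (−0.029 to 0.13). Of the 8 nucleic acid sensing genes with 100 UMIs, Ifi203 was past the fold, at −0.32 (−0.73 to 0.087), while Tbk1 (−0.20), Tmem173 (0.10), Myd88 (0.065) and Mb21d1 (−0.031) were not.

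Other lists held genes on both sides of 0, and their counts past the fold stand beside 3.46% of all genes upward and 4.57% downward. Among 6 further chemokine genes with 100 UMIs, Cxcl1, a neutrophil attractant, was higher, at 6.41 CPM in isotype and 11.8 CPM in anti-Skint1 DETCs, a log2 ratio of 0.88, with an interval clear of 0. Xcl1 and Ccl1 were lower, with log2 ratios of −1.72 and −0.85, and Cxcl2 was level at −0.015. Of the 18 immediate-early genes, Egr1 (0.39) and Egr2 (0.43) were past the fold upward and Atf3 (−0.55) and Nr4a3 (−0.34) downward; Fos (−0.026), Btg2 (0.079), Jund (0.030) and Junb (0.016), the most read, were near 0. Of the 18 NF-κB targets, Bcl3 (0.33) was past it upward and Rel (−0.38), Csf2 (−0.42) and Bcl2a1b (−0.83) downward, with Nfkbia (−0.045), Gadd45b (−0.0099), Tnfaip3 (−0.20) and Traf1 (−0.084) within it. Heat shock transcripts, a sign of handling stress, were lower in the anti-Skint1 DETCs: Hspa1a (−0.57), Hspa1b (−0.55) and Hsph1 (−0.83) of 10 genes were past the fold downward, Hsp90ab1 (−0.15), Hspa8 (−0.21) and Hsp90aa1 (−0.32) were below 0. Split into 3 parts by heat shock UMIs, thinned DETCs had Cxcl10 log2 ratios of 0.31, 0.35 and 0.63 from the lowest to the highest part, the last holding 37.1% of isotype and 27.2% of anti-Skint1 cells, and the part of this shift in the Cxcl10 ratio was not tested.

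In αβ T cells the members besides Cxcl10 were lower in sum after anti-Skint1 treatment. Cxcl10 stood at 161 CPM (134 to 191) in isotype and 139 CPM (115 to 166) in anti-Skint1 αβ T cells, from 129 and 116 UMIs, a log2 ratio of −0.22 (−0.59 to 0.16). This interval spans 0, but it lay below 0 with no upper limit on genes, −0.47 (−0.82 to −0.12), and with at most 5% mitochondrial UMIs, −0.55 (−1.12 to −0.00084). The other 35 members together stood at 910 CPM (845 to 979) and 635 CPM (582 to 691), a log2 ratio of −0.52 (−0.68 to −0.36). In 167 of 197 and 179 of 213 cells no Cxcl10 UMI was read, and the 10 highest cells of the class held 66.7% and 69.0% of the Cxcl10 UMIs. Of the other lists, the further interferon-stimulated genes were lower, with a log2 ratio of −0.28 (−0.36 to −0.20) and 7 of 12 past the fold downward, beside 13.2% of the genes of the class. The interferon genes were higher, with 19 and 55 UMIs, a log2 ratio of 1.47 (0.70 to 2.31), and the immediate-early genes had 0.27 (0.22 to 0.32). The make-up of the class also differed between the libraries, and its part in these values was not tested: DETC markers summed to 1465 CPM in isotype and 1829 CPM in anti-Skint1 αβ T cells, a log2 ratio of 0.32 (0.21 to 0.43), the NK and innate lymphoid markers had −0.27 (−0.45 to −0.089) and the dermal γδ markers −0.12 (−0.30 to 0.064).

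Much of the lower sum in αβ T cells lay in Ifi27l2a, a small interferon-induced protein of mitochondrial membranes. Ifi27l2a stood at 222 CPM in isotype and 105 CPM in anti-Skint1 αβ T cells, a log2 ratio of −1.08 (−1.46 to −0.70), and was nearly unread in DETCs. Without it the other members still had a log2 ratio of −0.38 (−0.56 to −0.19). Members under 100 UMIs in this class lay on both sides. Gbp3 had 34 UMIs in isotype and 9 in anti-Skint1 cells, Zbp1 26 and 7, Igtp 20 and 8, Isg15 41 and 23, and Gbp7 53 and 40, whereas Ddx58 had 13 and 20, Irf7 19 and 25, Irgm1 10 and 16, and Stat2 12 and 14. Bst2 (82 and 81 UMIs) and Irf1 (99 and 85) reached 100 UMIs over both libraries. Their log2 ratios were −0.081 (−0.54 to 0.38) and −0.28 (−0.72 to 0.15). Of the 4 members with 100 UMIs, 0 were past the fold upward and 1 downward (Ifi27l2a), beside 7.24% and 13.2% of the 2112 genes measured in the class.

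In the CD3-low set a single isotype cell set the result. As summed, Cxcl10 stood at 107 CPM in isotype and 25.8 CPM in anti-Skint1 cells, a log2 ratio of −2.05 (−2.96 to −1.21), and the other members at 1071 and 265 CPM, −2.01 (−2.28 to −1.75). Of the 41 isotype Cxcl10 UMIs, 40 were in that 1 cell, as were 299 of the 410 UMIs of the other members. Without it, Cxcl10 had 1 UMI in 81 isotype cells beside 17 in 139 anti-Skint1 cells, a log2 ratio of 3.28 (0.60 to 8.66), and the other members a log2 ratio of −0.15 (−0.50 to 0.20). No member reached 100 UMIs here, and 10.4% of the 1273 genes measured in the set were past the fold upward and 15.9% downward. Keratinocyte markers were also far higher in the anti-Skint1 cells of this set, with a log2 ratio of 3.24 and Krt14 the most abundant of them at 282 and 1864 CPM, and their part in these values was not tested.

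That cell carried nearly the whole programme at once. Among its 6477 UMIs it had 75 of Rsad2, 40 each of Isg15 and Cxcl10, 27 of Ifit1, 21 of Ifit2, 19 of Ifi27l2a, 12 of Ifit3, 10 of Irf7, 8 of Ifit3b and 7 of Mx1, and 31 of the 34 measured members besides Cxcl10 and Bst2 had at least 1 UMI. It had no UMI of Trdc, Trac or Trbc1, 1 of Cd3g, 12 of Il7r and 30 of Fcer1g, 13 of the Langerhans and myeloid markers, 3 of the neutrophil and mast cell markers and none of the NK and innate lymphoid markers, and its type is not named. Every other isotype cell of the set had 0 UMIs of the Ifit genes.

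Cells rich in the members were sought in all classes, with a bound of 20 UMIs of the members besides Cxcl10 and Bst2 that was chosen after the values were seen. The isotype library had 14 such cells of 4242 (0.330%, exact binomial interval 0.181 to 0.553) and the anti-Skint1 library 2 of 5961 (0.0336%, 0.0041 to 0.121), although it was the larger. The gap depended on the bound: at 5 UMIs the shares were 5.04% and 3.47% (214 and 207 cells), and at 10 UMIs 0.990% and 0.185%. At 50 UMIs there were 4 and 0, and the exact interval of 0 of 5961 reaches 0.0619%. Next after the cell of the CD3-low set came a pair of cells outside the gates with 128 and 75 such UMIs and with Cd3g and Trbc1 but neither Trdc nor Trac, then a DETC with 71. Of the 14, 2 were cells of 1447 and 1621 UMIs with 237 and 208 UMIs of neutrophil and mast cell markers. Another 3, αβ T cells, had 22 of 24, 17 of 24 and 14 of 22 such UMIs from Ifi27l2a alone. In the anti-Skint1 library the 2 cells were an αβ T cell with 23 UMIs of Ifi27l2a and a DETC with 10 of Irf1, and neither held an Ifit UMI.

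As these cells were picked by member UMIs with Cxcl10 left out, their shares of the members and of Cxcl10 cannot be compared. In the isotype library the 14 cells held 100 of the 120 Ifit UMIs of all kept cells, 92 of 107 of Rsad2, 12 of 13 of Mx1 and 136 of 769 of Isg15. The 1 cell of the CD3-low set accounted for 68 of these Ifit UMIs, 75 of Rsad2, 7 of Mx1 and 40 of Isg15. Of Cxcl10 the 14 cells held 97 of 1701 UMIs, and 9 of the 14 had any, as did all 4 with at least 50 member UMIs, beside 11.1% of isotype DETCs. The DETC among the first 4 had 29 Cxcl10 UMIs beside 16 of Isg15 and 12 of Ifit1, which were 12 of the 18 Ifit1 UMIs of all isotype DETCs. Only 3 of the 14 were DETCs, several were deeper than the DETC median, and neither of the anti-Skint1 cells held Cxcl10. At 5 or more member UMIs, 46 of 214 isotype and 46 of 207 anti-Skint1 cells did.

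**Figure D3:**
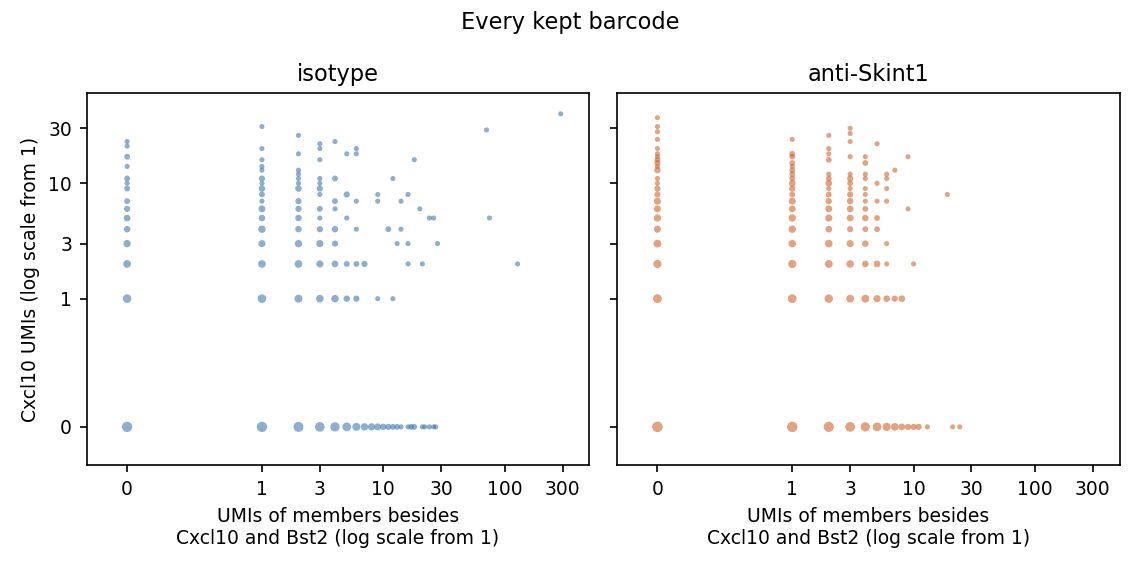
Each point stands for all kept cells of a library with the same pair of values, larger for more cells; the horizontal axis is UMIs of the members besides Cxcl10 and Bst2 and the vertical axis Cxcl10 UMIs, both linear below 1 and logarithmic above. Most cells with many Cxcl10 UMIs lie at low member UMIs in both libraries, and the 4 cells with 50 or more member UMIs are all in the isotype library.

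The upstream sequence of Cxcl10 is shown because its response could be compared with that of Isg15, which was higher in Cxcl10-positive DETCs, and Bst2, which was not. Cxcl10 (ENSMUSG00000034855) lies at chr5:92346638-92348889 on the minus strand of GRCm38, Isg15 (ENSMUSG00000035692) at chr4:156199424-156200818 and Bst2 (ENSMUSG00000046718) at chr8:71534255-71537456, both also on the minus strand. Windows of 250 bases before the gene start were taken from RefSeq (GRCm38.p6), whose start for Bst2 lies slightly beyond the gene coordinates given above. They covered 28 of the 37 members, and none was given for Usp18, Oas2, Mx1, Mx2, Zbp1, Dhx58, Ifi27l2a, Rtp4 and Parp14. They were searched on both strands for ISRE (GAAANNGAAA), GAS (TTCNNNGAA) and NF-κB (GGGANNTTCC) letters, which capitals mark in the sequences of chr5:92348890-92349139, chr4:156200819-156201068 and chr8:71537473-71537722, each 5′ to 3′ along the gene.
Cxcl10: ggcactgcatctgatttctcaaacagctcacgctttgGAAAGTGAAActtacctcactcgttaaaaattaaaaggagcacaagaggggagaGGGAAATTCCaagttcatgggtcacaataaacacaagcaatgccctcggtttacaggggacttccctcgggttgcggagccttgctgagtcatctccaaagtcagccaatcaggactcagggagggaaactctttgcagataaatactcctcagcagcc
Isg15: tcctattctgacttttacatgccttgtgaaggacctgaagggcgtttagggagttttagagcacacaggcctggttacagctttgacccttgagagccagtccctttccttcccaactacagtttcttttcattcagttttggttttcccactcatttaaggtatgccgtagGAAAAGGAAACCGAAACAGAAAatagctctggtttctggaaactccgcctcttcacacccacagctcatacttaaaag
Bst2: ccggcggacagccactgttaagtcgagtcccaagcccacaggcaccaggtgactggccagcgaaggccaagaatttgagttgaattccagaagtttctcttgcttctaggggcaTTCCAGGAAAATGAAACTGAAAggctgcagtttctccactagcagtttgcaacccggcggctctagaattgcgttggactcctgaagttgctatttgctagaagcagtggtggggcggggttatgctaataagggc

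The Cxcl10 window holds 1 ISRE match, beginning 213 bases before the gene start, and 1 NF-κB match, beginning 159 bases before it, and no GAS match. The Isg15 window holds 3 overlapping ISRE matches, the first 78 bases before the start, and neither of the other motifs, and the Bst2 window 2 ISRE matches and a GAS match that overlaps them. ISRE letters were present in 16 of the 28 members (57.1%), beside 936 of 27025 genes of the whole table (3.46%), and GAS letters in 6 members (21.4%), beside 8.13% of all genes. The NF-κB letters were present in Cxcl10 and Ifit2 alone among the 28, 7.14% beside 1.36% of all genes. Of the 10 genes most like Cxcl10 between DETCs, 8 had a window, and ISRE letters were in Egr4 and Isg15 and the other motifs in none. Such matches describe letters and not bound sites, and looser spellings of the motifs were not searched.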

How the data were processed

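The authors counted UMIs per gene and barcode with Cell Ranger on the mouse genome mm10 (GRCm38), and the deposited matrices hold these raw counts for every barcode. The study's own limits were used for cells (500 to 2500 genes, mitochondrial share no higher than 12%), and cells were placed in classes by marker UMIs (DETC: Trdc and CD3 at least 3 each). No doublet caller was run; the upper limit on genes, which 469 isotype and 464 anti-Skint1 barcodes exceeded, and the Trac, Cd4 and Cd8 conditions on DETCs were the treatment of doublets. UMIs were summed per class and library and given as CPM with exact Poisson intervals, ratios with exact conditional binomial intervals and shares with Clopper-Pearson intervals. Comparisons of shares and of Cxcl10-positive cells used cells thinned without replacement to 2000 UMIs. Ratios are named for members with at least 100 UMIs over both libraries in a class, and counts for the rest; of other lists, the 4 most read genes and any past the fold in DETCs; and the 10 genes highest and 5 lowest in Cxcl10-positive over Cxcl10-negative DETCs with at least 200 thinned UMIs in each library. The members and lists were chosen with earlier results of these data known. Ratios and thinning were tested on simulated data. The simulated counts were independent draws without the clumping in few cells seen for Cxcl10, so its intervals were not tested for clumping. Calculations used Python 3.11.15, numpy 2.4.6 and scipy 1.17.1.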

Additional observations from a re-analysis of the deposited data

Results flagged for a closer look

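The classes differed in direction under the same contrast. Cxcl10 had a log2 ratio of −2.05 in the CD3-low set beside 0.41 in DETCs, a difference that was not tested and that rested on 1 isotype cell, without which the value was 3.28. The other members together had −0.52 in αβ T cells and −2.01 in the CD3-low set beside 0.11 in DETCs. Neither difference was tested, and without the same cell the value of the CD3-low set was −0.15. With Bst2 left out, the DETC value was −0.067 (−0.12 to −0.014) and the αβ T cell value −0.59, on the same side of 0.

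Outside the 3 classes, in 428 isotype and 678 anti-Skint1 cells that no class sum used, Cxcl10 stood at 53.7 CPM (43.7 to 65.2) and 76.9 CPM (66.8 to 88.2), above the isotype level. The make-up of these cells differed as well, and its part was not tested: neutrophil and mast cell markers summed to 595 CPM in isotype and 1226 CPM in anti-Skint1 cells, keratinocyte markers to 472 and 745 CPM, and Langerhans and myeloid markers to 506 and 728 CPM. In the same cells Bst2 was higher as well, with a log2 ratio of 0.39, but the 35 members besides Cxcl10 were lower in sum. They had a log2 ratio of −0.27 (−0.37 to −0.16), and without Bst2 −0.60 (−0.74 to −0.47). Isg15 had 113 and 66 UMIs, but few isotype cells carried most of these: 5 of them held 23, 18, 11, 11 and 8 of the 113. Ifi27l2a had 115 and 59 UMIs. Of the 115, 1 isotype cell held 47, so that most lay in other cells.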

How the results depend on the processing

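Over 83 alternative values of the ratios, 68 stayed inside the interval of the main value. In DETCs, Cxcl10 had a log2 ratio from 0.39 to 0.55 over 9 alternatives, the highest at 5% mitochondrial UMIs, and the median member from −0.15 to 0.014. In αβ T cells the 10 alternatives for the other members ran from −0.60 to −0.37 and the 9 for Cxcl10 from −0.55 to −0.18. The alternatives that left out Bst2, Ifi27l2a or the richest cells by name, or added a condition on Trdc, were chosen after seeing the data. Leaving out Bst2 gave −0.067 for the other members in DETCs, and 0.59 (isotype) and 0.28 (anti-Skint1) in Cxcl10-positive over Cxcl10-negative DETCs. With Bst2 kept, the same comparison gave 0.15 in isotype with no upper limit on genes, 0.12 in isotype at 5% mitochondrial UMIs and −0.094 in anti-Skint1 with thinning to 1000 UMIs. In the CD3-low set, Cxcl10 had 0.057 with no upper limit on genes, −3.62 at 5% mitochondrial UMIs and 3.28 without the 1 isotype cell; without the 10 highest cells no isotype UMI was left and no ratio could be given. The other members there had −1.32 with no upper limit, −3.74 at 5% mitochondrial UMIs, 0.029 without the 10 highest cells, −1.68 with cells weighted equally and −0.15 without the 1 cell. Beyond these cells, the causes were not tested. With genes of at least 50 UMIs, more were past the fold: 423 upward and 755 downward in αβ T cells (main values 153 and 278) and 373 and 619 in the CD3-low set (133 and 202), as more and lower genes were counted. No paired analysis was possible because each group has 1 library. Depth limits many members: 18 of 36 had under 100 UMIs in DETCs.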
